A study of Mus musculus with 12 samples.

Results

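The genes described here make and move cholesterol: 29 genes chosen by name for their place in the pathway, not for their values, of 32121 genes in the table. All 29 were found by symbol, and all 29 passed the filter on low counts that left 17328 genes for the genotype test. By role they are 7 enzymes of the isoprenoid (mevalonate) steps, 11 enzymes of the squalene and sterol steps, 5 genes that control the SREBP transcription factors, and 6 genes of sterol transport, export and lipoprotein receptor turnover.

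Poly-A RNA was sequenced from 12 pieces of spleen, 2 pieces from each of 6 mice of strain C57BL/6. In 3 mice, called SB animals 1 to 3, the genotype is given as VEC-Cre with the SB transposase and onc2. The SB (Sleeping Beauty) transposase is an enzyme that cuts and pastes DNA transposons, and onc2 is a mutagenic transposon. The other 3 mice are controls given as wild type. No ages are given, and the labels do not spell out the VEC promoter that drives Cre. The design text asks whether both pieces of a spleen have alike transcriptomes, as a reading of how clonal the spleen is. In such animals the transposon inserts at different sites from mouse to mouse. The libraries held 14320833 to 22031026 counts. Levels are given in CPM, counts scaled to a common library size by edgeR's TMM method, with both pieces of a spleen summed per animal unless libraries are named.

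Cells make cholesterol from acetyl-CoA through mevalonate and farnesyl pyrophosphate, close the chain into lanosterol, and trim lanosterol to cholesterol. When membrane sterol is low, SCAP escorts the SREBP proteins out of the endoplasmic reticulum and they switch on the synthesis genes; INSIG proteins hold SCAP back when sterol is plentiful. Red pulp macrophages of the spleen take up whole red cells, and their membrane cholesterol leaves the lysosome through NPC2 and NPC1 and the cell through ABCA1 and ABCG1, whose genes respond to the liver X receptors.

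The spleens differed widely in cell type genes, and these values stand beside every comparison below. In bulk RNA, fewer cells of a type and less RNA per cell cannot be told apart. The summed level of 8 B cell markers was 55.4 to 113 CPM in the SB animals and 7370 to 8291 in controls, and all 8 fell in SB. All 8 T cell markers had SB libraries below control libraries, and 5 of them passed the test. Summed proliferation markers stood at 1948 to 3757 CPM in SB and 453 to 923 in controls, with 7 of 8 called higher. Megakaryocyte markers summed to 1041 to 4367 CPM in SB and 236 to 573 in controls, with 3 of 6 called higher. Erythroid markers summed to 1518.5, 10438 and 3547.7 CPM in SB animals 1, 2 and 3 and 3285, 2370 and 1269 in controls 1, 2 and 3. Their sums thus overlapped between genotypes, with 4 of 8 called higher and the others, among them Alas2 (log2 difference -0.35), not called. Spleen stroma markers summed to 73.9 to 148 CPM in SB and 569 to 759 in controls, with 3 of 6 called lower and 1 higher. Red pulp macrophage markers summed to 1022, 9871 and 1169 CPM in SB animals 1, 2 and 3, with controls at 1315 to 1427. Mrc1 alone made up 679 CPM of the sum in SB animal 1, beside 63.8 to 82.2 CPM in controls. Relative to the control mean, the median log2 ratio over these markers was -1.79, 2.80 and -0.07 in SB animals 1, 2 and 3. The sum in SB animal 1 thus hides lower levels of most of these markers. Of markers of liver and fat, Alb, Serpina1a, Ttr, Adipoq, Plin1, Cidec and Lep were below 1 CPM in all libraries, while Apoa1 was at 1.80 CPM in SB animal 1 and at most 0.217 CPM in the other mice. Fabp4 rose, from 4.04 to 4.55 CPM in controls to 30.8, 44.9 and 138 CPM in SB. SB animal 1 held 2216 CPM of Xist and SB animal 2 held 994, beside no more than 2.46 in any other mouse. The Y-linked Ddx3y was at 0.250 and 0.180 CPM in these 2 animals, at 95.5 in SB animal 3 and at 61.2 to 76.9 in controls. Sex-linked RNA was thus unequal between genotypes and partly confounded with genotype. The part of these differences in the results below was not tested.

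Hmgcs1 fell in SB spleens, and it was the 1 cholesterol gene of 29 that passed the genotype test. It encodes the cytosolic HMG-CoA synthase, which condenses acetoacetyl-CoA and acetyl-CoA early in the mevalonate route (ENSMUSG00000093930, GRCm38 chromosome 13, 119690379 to 119708260, plus strand). Its level was 36.8, 40.8 and 38.2 CPM in SB animals 1, 2 and 3, and 61.7, 70.4 and 73.2 CPM in controls 1, 2 and 3. Every SB library, at 30.0 to 43.9 CPM, lay below every control library, at 59.6 to 75.9 CPM. The means were 38.6 ± 2.02 CPM in SB and 68.5 ± 6.01 CPM in controls (SD, n = 3 each). The log2 difference was -0.79 (SE 0.15), with an adjusted p of 0.0181 by edgeR's quasi-likelihood test with Benjamini-Hochberg adjustment over all genes tested. The call rested on all 3 controls: without control 1, 2 or 3 the edgeR adjusted p was 0.0743, 0.107 or 0.111, while the log2 difference stayed between -0.88 and -0.76.

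Over all genes, 8.59% were called higher in SB and 9.75% lower. Of the 29 cholesterol genes, 0 were called higher and 1 lower by edgeR, and 6 had an unadjusted p under 0.05, each with a lower mean in SB. An unadjusted p under 0.05, in either direction, was found for 6167 of the 17328 genes tested. The count of 6 is thus not read as particular to the pathway. DESeq2, run on the same counts, also called 0 higher and called 5 lower, adding Cyp51, Srebf2, Insig2 and Mylip to Hmgcs1. Its calls over all genes were 2777 higher and 2769 lower, beside 1489 and 1689 by edgeR. Among the 29, 15 log2 differences were positive and 14 negative, with a median of 0.00 beside 0.11 over all genes tested. All SB libraries lay below all control libraries for 5 of the 29 and for 16.6% of all genes tested. In the other direction, all SB libraries lay above all control libraries for 0 of the 29 and for 2252 of the 17328 genes tested. The 5 below were Hmgcs1, Cyp51, Srebf2, Insig2 and Mylip. A share of 5 in 29 is close to the background, so the count of genes below says nothing particular about the pathway. These counts moved most with SB animal 2: without it edgeR called 7 of the 29 lower (Hmgcs1, Cyp51, Msmo1, Insig1, Insig2, Npc1 and Npc2) and 2 higher (Scap and Stard4). Calls over all genes rose as well without that animal, from 1689 to 3324 lower and from 1489 to 3085 higher.

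**Figure D1:**
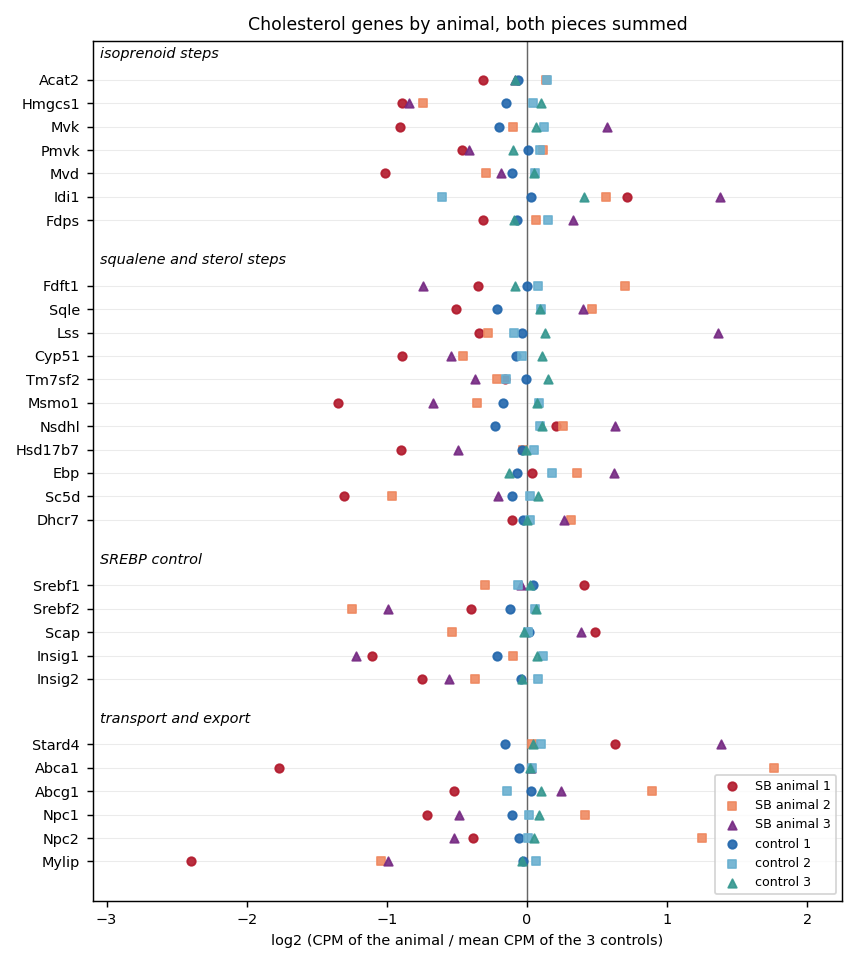
Each point is 1 animal's level relative to the mean of the 3 controls, on a log2 scale, for the 29 cholesterol genes grouped by role; SB animals are in red, orange and purple and controls in blue and green. The controls lie close together, the SB animals spread to both sides, and Hmgcs1, Cyp51, Srebf2, Insig2 and Mylip are among the genes with all 3 SB animals on the low side.

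The sequence before the Hmgcs1 start site is shown because Hmgcs1 carries the called change, beside those of Srebf2 and Mylip, which like it had no overlap between genotypes and which have 1 RefSeq start site each. Sequences are from RefSeq (GRCm38.p6), read 5′ to 3′ along the gene's strand and ending at the base before the start site, or for Srebf2 before the start of its GENCODE gene model. Capitals mark the letters TCACNCCAC, a form of the sterol regulatory element bound by SREBP, and CCAAT or its reverse complement ATTGG, the core of the NF-Y box.
Hmgcs1 (chr13:119690101-119690350, plus strand): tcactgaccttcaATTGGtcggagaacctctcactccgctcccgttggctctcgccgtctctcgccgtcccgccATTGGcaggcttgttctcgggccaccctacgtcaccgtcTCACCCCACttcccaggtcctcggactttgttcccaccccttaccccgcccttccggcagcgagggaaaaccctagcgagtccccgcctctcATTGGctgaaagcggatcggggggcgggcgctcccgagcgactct
Srebf2 (chr15:82147019-82147180, plus strand): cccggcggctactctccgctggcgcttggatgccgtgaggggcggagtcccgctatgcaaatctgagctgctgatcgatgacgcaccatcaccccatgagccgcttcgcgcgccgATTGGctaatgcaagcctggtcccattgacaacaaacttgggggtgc
Mylip (chr13:45389492-45389741, plus strand): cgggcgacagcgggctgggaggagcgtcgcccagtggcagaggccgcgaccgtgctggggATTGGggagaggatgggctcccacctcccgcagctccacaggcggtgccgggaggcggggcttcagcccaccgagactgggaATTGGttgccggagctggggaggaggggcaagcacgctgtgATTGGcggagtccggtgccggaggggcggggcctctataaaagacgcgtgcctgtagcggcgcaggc

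In these windows, which run from 250 bases before to 50 after a start site, TCACNCCAC was found on either strand in 1 of 23 cholesterol genes with a RefSeq window. That gene was Hmgcs1, with TCACCCCAC beginning 137 bases before the start; 1.24% of all 32851 windows of this length held the motif. CCAAT was found in 20 of the 23 genes, or 67.7% of their 31 windows, beside 37.4% of all windows. GGGCGG, the Sp1 box, was found in 22 of the 23, or 83.9% of their windows, beside 35.7% of all. TCACGTGA, an E-box form bound by SREBP, was found in 0 of the 23 and in 0.974% of all windows. None of the 4 motifs contains another, and a match describes the letters in the window only. Fdft1, Fdps, Sqle, Npc1, Stard4 and Abcg1 have no window in the table.

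The other 6 enzymes of the isoprenoid steps did not pass the genotype test, and their levels did not shift together. Mvd, mevalonate diphosphate decarboxylase, stood at 11.3, 18.7 and 20.1 CPM in the SB animals and 21.2, 23.7 and 23.7 CPM in controls. Each SB animal lay below each control, while single libraries overlapped (log2 difference -0.42, SE 0.26, edgeR adjusted p = 0.299). Mvk, mevalonate kinase, stood at 7.85, 13.7 and 21.8 CPM in SB animals, which lay on both sides of the controls at 12.8 to 16.0. Idi1, the isopentenyl diphosphate isomerase, was the opposite case to Hmgcs1, at 2.30, 2.07 and 3.64 CPM in SB and 1.43, 0.921 and 1.86 CPM in controls (log2 difference 0.96, SE 0.42, edgeR adjusted p = 0.157). Its SB animals were all above the controls, but at a few CPM its libraries overlapped. Pmvk, which makes mevalonate diphosphate, Acat2, the cytosolic thiolase that makes acetoacetyl-CoA, and Fdps, farnesyl diphosphate synthase, overlapped between genotypes, with log2 differences of -0.20, -0.05 and 0.08. The 7 isoprenoid genes summed to 118 ± 18.4 CPM in SB and 158 ± 9.78 in controls (SD, n = 3 each), and Hmgcs1 made up 29.9 CPM of that gap of 40.5 CPM.

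Of the 11 squalene and sterol enzymes, 0 passed the genotype test by edgeR and 2, Cyp51 and Msmo1, had an unadjusted p under 0.05. DESeq2 called Cyp51 lower (DESeq2 adjusted p = 0.0281). Cyp51, the lanosterol demethylase that opens the trimming of lanosterol, stood at 24.3, 32.9 and 31.0 CPM in the SB animals and 42.9, 44.1 and 48.6 CPM in controls. SB libraries reached 33.6 CPM and control libraries began at 35.8 CPM, so the genotypes did not overlap, though the gap was small. The log2 difference was -0.59 (SE 0.18, edgeR adjusted p = 0.0682). Msmo1, the methylsterol oxidase that acts after Cyp51, stood at 14.4, 28.5 and 23.0 CPM in SB and 32.5, 38.7 and 38.5 CPM in controls (log2 difference -0.71, SE 0.28, edgeR adjusted p = 0.128). Sc5d, the sterol desaturase near the end of the route, stood at 16.9, 21.4 and 36.2 CPM in SB and 38.8, 42.4 and 44.1 CPM in controls (log2 difference -0.72, SE 0.30, edgeR adjusted p = 0.147). In both genes each SB animal was below each control, and the nearest SB animal (2 for Msmo1, 3 for Sc5d) came within the range of single control libraries.

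The remaining sterol enzymes went in both directions or were set apart by 1 animal. Lss, which folds squalene epoxide into lanosterol, was at 16.8 CPM in SB animal 1, 17.5 in SB animal 2, 54.9 in SB animal 3 and 19.9 to 23.2 in controls. SB animal 3 alone was high. Its log2 difference of 0.51 (SE 0.49, edgeR adjusted p = 0.498) turned to -0.27 without that animal. Fdft1, squalene synthase, was highest in SB animal 2, at 31.7 CPM against 15.3 and 11.6 in SB animals 1 and 3 and 18.4 to 20.6 in controls. Its exons share 774 bases (18.3% of its exon length) with Ctsb on the opposite strand, and these libraries carry no strand. Ctsb, a lysosomal protease, was at 4765 CPM in SB animal 2, at 413 CPM in SB animal 1, at 1011 in SB animal 3 and at 890 to 952 in controls. Reads of the 2 genes over the shared bases cannot be told apart.

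Sqle, squalene epoxidase, stood at 21.0, 41.2 and 39.4 CPM in SB and 25.7 to 31.9 CPM in controls, with SB animals on both sides. Dhcr7, the reductase of the last step to cholesterol, stood at 28.7, 38.4 and 37.2 CPM in SB and 30.4 to 31.4 CPM in controls. Hsd17b7, a sterol ketoreductase, stood at 7.29, 13.3 and 9.67 CPM in SB and 13.2 to 14.0 CPM in controls. These 3 overlapped between genotypes in animals. Tm7sf2, a sterol reductase, was low in all samples, at 7.62 to 8.82 CPM in SB and 8.85 to 10.9 CPM in controls, and part of its exon sequence is shared with Vps51 on the same strand. The 2 X-linked enzymes both had higher means in SB: Nsdhl, a sterol dehydrogenase, was at 19.6, 20.2 and 26.2 CPM beside 14.5 to 18.3 in controls, and Ebp, the sterol isomerase, at 37.9, 47.3 and 56.8 CPM beside 33.8 to 41.8. In both the highest value was in SB animal 3, the SB animal with the low Xist level, which was 0.63 and 0.62 above the control mean on the log2 scale. Neither passed the test (edgeR adjusted p = 0.232 and 0.217).

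Across all 18 synthesis enzymes, 9 log2 differences were positive and 9 negative, with a median of -0.02 beside 0.11 over all genes. Their summed level was 307, 431 and 459 CPM in the SB animals and 430, 477 and 473 CPM in controls. SB animal 1 was clearly low, and SB animals 2 and 3 lay within the control range.

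**Figure D2:**
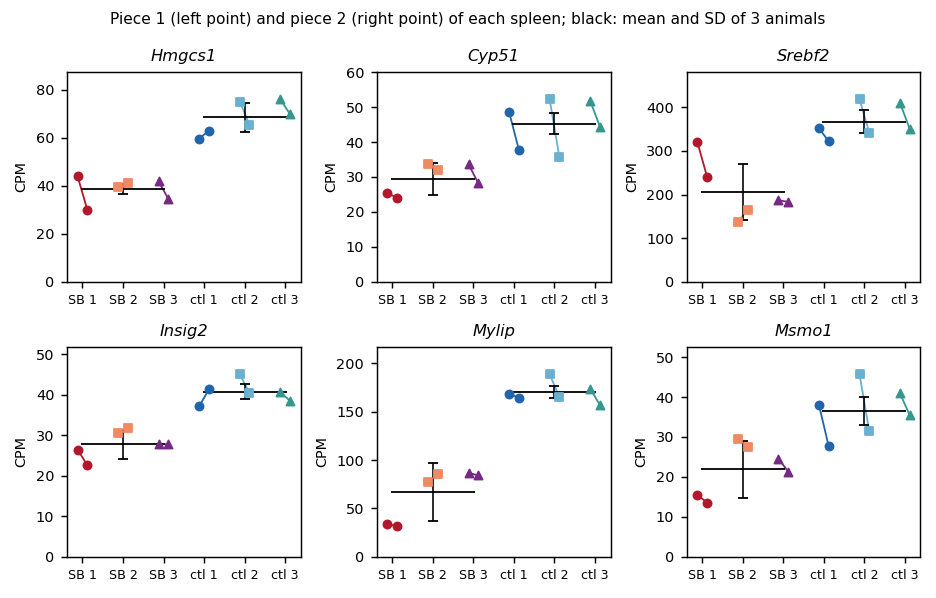
CPM in each library for the 6 genes with an unadjusted p under 0.05 in the genotype test, with piece 1 and piece 2 of a spleen joined by a line and the mean and SD of 3 animals in black. For Hmgcs1 the SB libraries end at 43.9 CPM and the control libraries begin at 59.6 CPM, while for Msmo1 the 2 sets of libraries overlap.

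Among the 5 genes of SREBP control, 0 passed by edgeR, 2 (Srebf2 and Insig2) had an unadjusted p under 0.05, and DESeq2 called these 2 lower. Srebf2, which encodes SREBP2, the main activator of the synthesis genes, stood at 279, 155 and 185 CPM in the SB animals and 337, 382 and 384 CPM in controls. The highest SB library, at 320 CPM, came just below the lowest control library, at 322 CPM. The log2 difference was -0.80 (SE 0.26, edgeR adjusted p = 0.0807). Insig2 stood at 24.3, 31.5 and 27.8 CPM in SB and 39.7, 43.0 and 39.8 CPM in controls, with no overlap of libraries (log2 difference -0.52, SE 0.17, edgeR adjusted p = 0.0807). Insig1, itself a target of SREBP, stood at 14.6, 29.3 and 13.5 CPM in SB and 27.2, 34.1 and 33.1 CPM in controls, so SB animal 2 lay among the controls and the other SB animals well below. Srebf1, which encodes SREBP1, the form tied most to fatty acid genes, stood at 173, 107 and 127 CPM in SB and 125 to 135 CPM in controls. Scap, the escort of both, stood at 126, 62.2 and 118 CPM in SB and 88.8 to 91.0 CPM in controls. Both were highest in SB animal 1 and lowest in SB animal 2, on either side of narrow control ranges.

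In transport and export, 0 of 6 genes passed by edgeR, 1 (Mylip) had an unadjusted p under 0.05, and DESeq2 called Mylip lower. Mylip, a ubiquitin ligase that marks lipoprotein receptors for breakdown and is a target of the liver X receptors, had the largest difference of the 29. It stood at 32.3, 82.9 and 85.5 CPM in the SB animals and 167, 178 and 167 CPM in controls. No library overlapped: the highest SB library was at 86.9 CPM and the lowest control library at 157 CPM. The means were 66.9 ± 30.0 and 170 ± 6.33 CPM (SD, n = 3 each), with a log2 difference of -1.32 (SE 0.37, edgeR adjusted p = 0.0574). Without SB animal 1, the lowest, the log2 difference was -0.99 and the edgeR adjusted p was 0.0100.

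Abca1, the pump that loads cholesterol onto apolipoprotein A-I, showed the widest spread of the 29 among SB animals. Its level was 29.9 CPM in SB animal 1, 345 in SB animal 2 and 104 in SB animal 3, against 97.9, 104 and 103 CPM in controls. SB animal 3 matched the controls, SB animal 1 was far below them and SB animal 2 far above. The genotype log2 difference of 0.67 had an SE of 0.78 (edgeR adjusted p = 0.577) and turned to -0.58 without SB animal 2. Abcg1, which passes cholesterol to larger lipoproteins, followed the same order, at 60.4, 161 and 102 CPM in SB and 78.6 to 92.7 CPM in controls.

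Npc2, the soluble lysosomal protein that hands cholesterol to NPC1, stood at 217, 671 and 197 CPM in the SB animals and 272, 284 and 293 CPM in controls. SB animal 2 was high and the other SB animals were below every control. Without SB animal 2 the log2 difference changed from 0.39 to -0.41, and Npc2 was then called lower (edgeR adjusted p = 0.0407). Npc1, the membrane protein of the lysosome, showed the same split at 36.2, 79.0 and 42.3 CPM in SB and 55.2, 59.8 and 63.0 CPM in controls. The summed red pulp macrophage markers were likewise highest in SB animal 2, at 9871 CPM, and the monocyte markers summed to 255, 3531 and 537 CPM in the SB animals and 475 to 521 CPM in controls; their part in these values was not tested. Stard4, a carrier of cholesterol between membranes, had another order, at 72.6, 48.2 and 123 CPM in SB and 42.1, 50.4 and 48.4 CPM in controls. SB animals 1 and 3 were above the controls and SB animal 2 was among them (log2 difference 0.82, SE 0.34, edgeR adjusted p = 0.147).

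**Figure D3:**
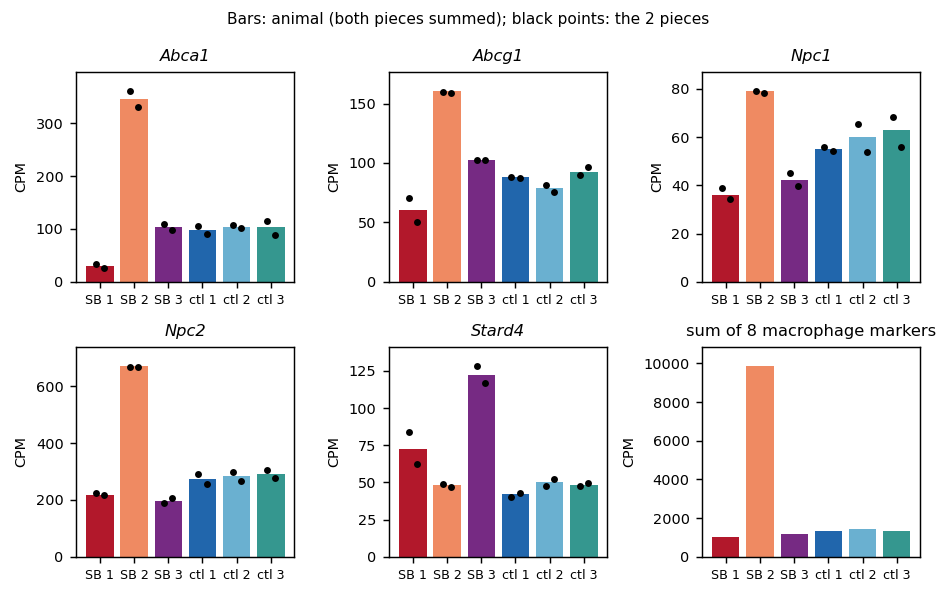
CPM per animal for 5 transport genes and for the sum of 8 red pulp macrophage markers, with the 2 pieces of each spleen as black points on the gene panels. SB animal 2 is highest for Abca1, Abcg1, Npc1, Npc2 and the macrophage sum, whereas Stard4 peaks in SB animal 3 at 123 CPM.

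The SB animals were then compared with each other, with the spread between the 2 pieces of a spleen as the error, so these p-values compare these 6 spleens only. By edgeR's F test, 20 of the 29 cholesterol genes (69.0%) were unequal among the 3 SB animals, and 70.8% of all genes tested were, so the pathway differed between SB spleens about as often as other genes did. Abca1 had the smallest adjusted p of the 29 (edgeR, 6.3e-09), followed by Npc2 (4.32e-08) and Lss (1.49e-07). Between SB animals 1 and 3 alone, both counts fell, from 20 to 13 for the 29 and from 12575 to 8109 for all genes. The count of 13 is thus not read as particular to the pathway. Among controls, 0 of the 29 were unequal by edgeR, 0 had an unadjusted p under 0.05 and 0 were called by DESeq2, beside 0.557% of all genes. The highest SB animal was above the lowest by a median of 1.83-fold over the 29 genes, and the same ratio among controls was 1.14-fold. The ratio was larger among SB animals for 26 of the 29 genes and for 92.0% of all genes with a count in every animal.

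Hmgcs1 was lower than in controls by a like amount in each SB animal. Its highest SB animal was 1.11-fold above its lowest, the smallest ratio of the 29 in SB, and the F test did not call it (edgeR adjusted p = 0.678). The other genes not called unequal among SB animals were Acat2, Idi1, Fdps, Cyp51, Tm7sf2, Nsdhl, Dhcr7 and Insig2. A missed threshold does not show that these levels were equal.

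The order of the SB animals was not the same for every role. SB animal 1 had the lowest level for 15 of the 18 synthesis enzymes (83.3%), while it was lowest for 37.4% of all genes tested and for 5 of the 11 control and transport genes. Of the 18 enzymes, Idi1 was lowest in SB animal 2, and Fdft1 and Tm7sf2 were lowest in SB animal 3. SB animal 2 was highest for 15 of all 29 genes (51.7%) and SB animal 3 for 10 (34.5%), beside 36.4% and 31.3% of all genes tested. Srebf2, Srebf1 and Scap ran against the enzymes, with their highest SB level in SB animal 1. These are counts over genes of 3 spleens, and no test of the order was made.

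Levels per kilobase of annotated exon allow a rough comparison of genes, since the exons of all transcripts of a gene were merged. On this scale the most abundant cholesterol transcripts in control spleens were Mylip (52.7 CPM per kilobase), Npc2 (52.0) and Srebf2 (51.2). The animals' ranges of these 3 overlapped, so their order was not resolved. Srebf1 (23.2), Pmvk (19.1), Ebp (16.0) and Hmgcs1 (14.9) came next, and the ranges of Pmvk and Ebp, and of Ebp and Hmgcs1, overlapped. In SB spleens the order differed between animals. Mylip stood at 9.98, 25.7 and 26.4 CPM per kilobase, Srebf2 at 38.8, 21.5 and 25.8, and Npc2 at 39.9, 123 and 36.3, so Npc2 led in each SB animal and Mylip was above Srebf2 in SB animals 2 and 3. Hmgcs1 stood at 8.02, 8.89 and 8.31 on this scale. The lowest values were those of Idi1 and Fdps, at 0.400 and 0.698 in controls and 0.762 and 0.722 in SB. Fdps shares 1124 bases (26.7% of its exon length) with Gm43738 on the same strand, a gene that is not among those counted. Reads over these bases may be missing from the Fdps counts, and this was not tested.

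Pieces 1 and 2 of each spleen were compared next, with the animal as a block. The descriptions number the pieces of every spleen as 1 and 2, while the titles number the sections of SB spleens and letter those of controls. No position in the organ is given, so piece 1 of 1 animal need not match piece 1 of another. Over all animals 11.0% of 16787 genes tested were unequal between pieces, with 890 lower in piece 2 and 953 higher. Of the 29 cholesterol genes, 4 were lower in piece 2 (Cyp51, Msmo1, Dhcr7 and Abca1) and 0 were higher, and DESeq2 called the same 4. An unadjusted p under 0.05 was found for 10 of the 29, all lower in piece 2, and for 4882 of the 16787 genes tested, in either direction. Over the 29 genes 21 fitted differences were negative, beside 47.2% of all genes. Msmo1 was lower in piece 2 in all 6 animals, with per-animal differences of -0.09 to -0.52 on the log2(CPM + 1) scale and a fitted log2 difference of -0.28 (SE 0.07, edgeR adjusted p = 0.0288). Dhcr7 (log2 difference -0.28, SE 0.07, edgeR adjusted p = 0.0312), Cyp51 (log2 difference -0.25, SE 0.06, edgeR adjusted p = 0.0330) and Abca1 (log2 difference -0.22, SE 0.06, edgeR adjusted p = 0.0375) were also lower in piece 2 in all 6 animals. These calls were lost when control 2 or 3 or SB animal 3 was left out, each leaving 0 of the 29 called, and without control 1 the 1 gene called was Insig1. Without SB animal 2, 7 of the 29 were called lower in piece 2, while calls of lower over all genes went from 890 to 1178.

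Within controls 8.82% of all genes were unequal between pieces, with 504 of 16787 lower in piece 2 and 977 higher. Of the 29, Cyp51 and Msmo1 were lower in piece 2 and 0 were higher by edgeR or DESeq2. Cyp51 went from 48.6 to 37.9 CPM in control 1, from 52.2 to 35.8 in control 2 and from 51.8 to 44.4 in control 3 (log2 difference -0.38, SE 0.09, edgeR adjusted p = 0.0261). Msmo1 went from 38.0 to 27.6 CPM, from 45.7 to 31.5 and from 40.9 to 35.4 in the same animals (log2 difference -0.40, SE 0.09, edgeR adjusted p = 0.0241). Each control was lower in piece 2 for both genes, and with any 1 control left out neither was called. Over the 29 genes 26 fitted differences were negative in controls, beside 49.1% of all genes. The 18 enzymes summed to 448, 522 and 494 CPM in piece 1 of controls 1, 2 and 3, and to 412, 429 and 447 CPM in piece 2. In the same libraries the summed B cell markers went from 7839 to 6922, 9053 to 7474 and 8686 to 7414 CPM, and the red pulp macrophage markers from 1146 to 1442, 880 to 1956 and 940 to 1850 CPM. The part of cell composition in the piece difference was not tested.

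Within SB animals 0.0119% of all genes were unequal between pieces by edgeR, and 0 of the 29 by edgeR or DESeq2. An unadjusted p under 0.05 was found for 8 of the 29 and for 3509 of the 16787 genes tested. Hsd17b7 came closest (log2 difference -0.55, SE 0.16, edgeR adjusted p = 0.110), and it was the 1 gene called when SB animal 2 was left out. The difference between genotypes in the piece effect was tested directly: 1.23% of all genes passed by edgeR, and 0 of the 29 did by edgeR or DESeq2. An unadjusted p under 0.05 was found for 2932 of the 16787 genes tested and for 5 of the 29. Those 5 included Stard4, which was lower in piece 2 in all 3 SB animals and higher in all 3 controls (edgeR adjusted p = 0.230), and Mvd, which went the other way in both groups (edgeR adjusted p = 0.250). Piece effects in cholesterol genes were thus not shown to differ between genotypes.

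**Figure D4:**
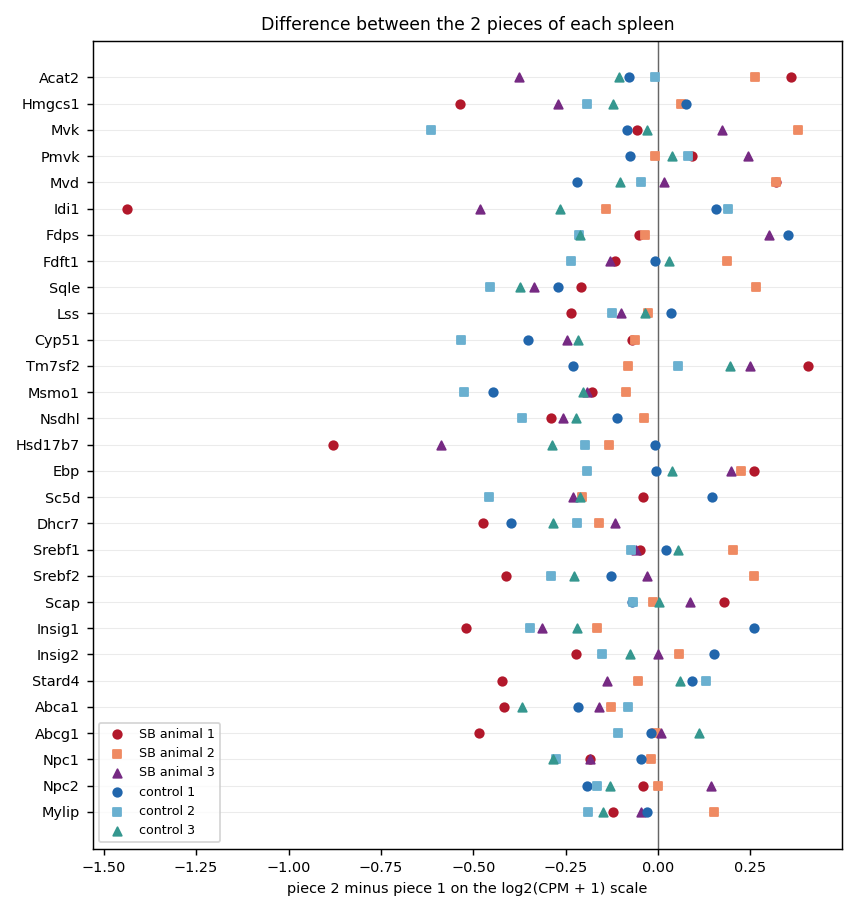
Piece 2 minus piece 1 for each animal on the log2(CPM + 1) scale, 1 row per cholesterol gene; SB animals are in red, orange and purple and controls in blue and green. All 6 animals lie left of 0 for Cyp51, Msmo1, Dhcr7 and Abca1, while Stard4 and Mvd have SB animals on one side and controls on the other.

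Beyond the 29, 46 other genes of sterol and fatty acid handling were taken from a list: genes of SREBP processing, isoprenoid branches, fatty acid synthesis under SREBP, esterification, uptake, the liver X receptors and oxysterols. Of the 46, 4 rose and 2 fell in SB by edgeR and 40 were not called, with a median log2 difference of 0.40 beside 0.11 over all genes. Over all genes 8.59% were called higher and 9.75% lower, so these counts are not read as particular to the list. Scd1, the desaturase that makes oleate and a target of SREBP1 and the liver X receptors, had the largest change, at 9.32, 12.4 and 61.7 CPM in SB and 714, 821 and 805 CPM in controls. It fell by 4.78 on the log2 scale (SE 0.83, edgeR adjusted p = 0.0160). Scd2, an isozyme of the same reaction, was not called, at 362, 125 and 129 CPM in SB and 147 to 166 CPM in controls.

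Both front-end desaturases of polyunsaturated fatty acids rose. Fads1 stood at 204, 174 and 110 CPM in SB and 48.1, 45.2 and 42.2 CPM in controls (log2 difference 1.88, SE 0.26, edgeR adjusted p = 0.00878). Fads2 stood at 100.04, 19.7 and 83.5 CPM in SB and 6.31, 7.14 and 6.87 CPM in controls (log2 difference 3.36, SE 0.61, edgeR adjusted p = 0.0181). Soat2, which esterifies cholesterol for storage, stood at 19.9, 11.0 and 30.9 CPM in SB and 2.64, 2.66 and 3.12 CPM in controls (log2 difference 2.91, SE 0.43, edgeR adjusted p = 0.0103). Lpcat3, a phospholipid remodelling enzyme and liver X receptor target, stood at 80.2, 141 and 108 CPM in SB and 52.5, 45.4 and 38.3 CPM in controls (log2 difference 1.30, SE 0.25, edgeR adjusted p = 0.0201). In these 4 genes every SB animal was above every control.

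Gramd1a, which moves cholesterol from the plasma membrane to the endoplasmic reticulum, stood at 218, 138 and 137 CPM in SB and 330, 295 and 322 CPM in controls (log2 difference -0.91, SE 0.23, edgeR adjusted p = 0.0471). It was not called without SB animal 2 or 3 (edgeR adjusted p = 0.0542 and 0.0898), without any 1 control (0.141 to 0.166), with library totals only (0.0668), in piece 2 alone (0.106) or under edgeR's older quasi-likelihood fit (0.0519). With any 1 control left out none of the 6 was called, with edgeR adjusted p of 0.0504 to 0.166. Scarb1, a receptor for high-density lipoprotein, missed the threshold at 87.1, 690 and 309 CPM in SB and 59.2 to 63.1 CPM in controls (log2 difference 2.58, SE 0.70, edgeR adjusted p = 0.0527).

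**Figure D5:**
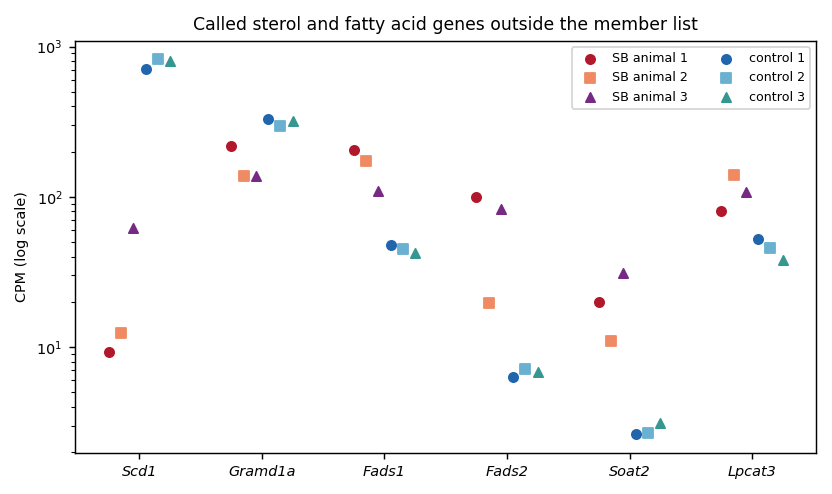
CPM per animal on a log axis for the 6 called genes outside the 29. Scd1 lies between 9.32 and 61.7 CPM in the SB animals and between 714 and 821 CPM in controls, and Fads1, Fads2, Soat2 and Lpcat3 have every SB animal above every control.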

How the data were processed

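The deposited values are raw read counts per Ensembl gene, 1 column per piece, judged from the values themselves. The kit selected poly-A RNA and did not mark strand, per the labels' protocols. STAR 2.5.3a, limma and the builds mm10 and GRCm38 are named without a role, per the submitters' processing notes; the counting mode and annotation release were not given in the sources used here. Symbols and coordinates came from GENCODE release 21 of GRCm38, which matched 32026 of 32121 identifiers. Samples were grouped by the genotype label; SB animals are numbered in the order of the records. No label says that the pieces or animals were processed in separate batches, so batches could not be compared. The 29 cholesterol genes, the other gene lists and the tests were chosen with earlier results of these data known.

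For genotype, both pieces' counts were summed per animal, and 3 SB animals were compared with 3 controls by edgeR 4.0.16 in R 4.3.3 (TMM scaling, filterByExpr, robust quasi-likelihood fit with bias adjustment, two-sided, Benjamini-Hochberg over all genes tested, threshold 0.05). The bias-adjusted form of the fit was taken after results under edgeR's older form had been seen. Pieces were compared over 12 libraries in a fit with an animal block, and animals by an F test with 1 coefficient per animal. Titles name the animal of each piece, which pairs the pieces of a spleen. DESeq2 1.42.0, other scalings, no filter, single pieces and leaving out each animal were alternatives. Standard errors (SE) came from the F statistic. Scripts were tested on simulated data. All 29 genes were named whatever their p, with up to 5 called genes per direction from the other lipid list. The common biological coefficient of variation was 49.7%.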

Additional observations from a re-analysis of the deposited data

How the results depend on the processing

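Hmgcs1 kept a lower level in SB under every alternative and was called in all of them except those without 1 control. The number of the 29 genes called lower was 5 with DESeq2, 4 with upper-quartile scaling, 2 with library totals only and 3 in piece 1 alone, and it was 0 to 7 with 1 animal left out, where 0 to 2 were called higher. Over all genes DESeq2 called 2777 higher and 2769 lower, and leaving out 1 animal gave 86 to 3085 higher and 468 to 3324 lower. Upper-quartile scaling moved the median log2 difference of all genes from 0.11 to -0.02. It and other settings turned the sign of small differences, none of them called in these settings: Mvk to -0.0089 (DESeq2), -0.0049 (RLE), -0.14 (upper quartile), -0.015 (library totals), -0.025 (no filter) and -0.27 (piece 1); Fdft1 to -0.10, -0.039 and -0.057 (upper quartile, library totals, piece 1); Fdps to -0.055 and -0.012 (upper quartile, piece 1); Srebf1 to -0.045 (upper quartile); and Acat2 to 0.029 (piece 2). With 1 animal left out the sign was not stable for 10 genes: Acat2 ranged from -0.16 to 0.056, Mvk from -0.41 to 0.30, Fdps from -0.078 to 0.23, Fdft1 from -0.50 to 0.30, Lss from -0.27 to 0.79, Srebf1 from -0.14 to 0.23, Abca1 from -0.58 to 1.17, Abcg1 from -0.057 to 0.63, Npc1 from -0.56 to 0.057 and Npc2 from -0.41 to 0.68. Of the turned values 1 was called, Npc2 without SB animal 2. The older edgeR fit called Hmgcs1 at an adjusted p of 0.0203 but not Gramd1a, at 0.0519; this alternative was added after the data were seen. The causes were not tested.

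For pieces, the fit without the replicate block (the pairing by animal) called 0 of the 29 and 0 genes over all in each comparison: all animals, SB, controls and the difference between genotypes. Leaving out 1 animal gave 0 to 7 of the 29 lower in all animals, 0 to 1 in SB and, with a control left out, 0 in controls; with SB animal 1, 2 or 3 out of the joint fit the control comparison called 8, 3 or 2 of the 29. Over all genes it gave 0 to 1171 higher and 0 to 1309 lower in all animals, 0 to 289 higher and 1 to 436 lower in SB, 0 to 852 higher and 0 to 190 lower in controls with a control left out, and 0 to 534 for the difference. For all genes in SB, DESeq2 called 94 higher and 231 lower, and no filter gave 4 and 10. DESeq2 called 475 genes for the difference, and no filter gave 329 lower in controls. Among SB animals 13 to 18 of the 29 and 8109 to 9697 of all genes were unequal with 1 animal left out. For controls the all-gene count was 322 with DESeq2 and 19 to 356 with 1 animal left out. A design of 3 against 3 animals with this spread limits which differences can pass, and Idi1 and Fdps, at a few CPM, have the fewest counts.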

Other observations

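Of 10 genes of the liver X receptor and esterification lists, 6 had SB animal 2 highest and SB animal 1 lowest, the order of Abca1, as did 21.6% of all genes tested; the other 4 were Nr1h2, Soat2, Lipa and Nceh1. The genes below were named after their values were seen. Nr1h3, which encodes a liver X receptor, stood at 5.66, 60.6 and 26.9 CPM in the SB animals 1, 2 and 3 and at 47.1 to 62.0 CPM in controls. Its partner Rxra stood at 17.4, 167 and 26.6 CPM in SB and at 65.7 to 68.6 CPM in controls. Soat1, the cholesterol esterifying enzyme of macrophages, stood at 16.6, 149 and 29.3 CPM in SB and at 93.3 to 106 CPM in controls, and Pltp, a phospholipid transfer protein, at 9.18, 311 and 38.1 CPM in SB and at 20.3 to 26.5 CPM in controls. In each of the 4 genes SB animal 2 was highest and SB animal 1 lowest, and the genotype test called none (edgeR adjusted p of 0.206 to 0.947). Csf1r, the growth factor receptor of macrophages and monocytes, had the same order, at 51.6, 2008 and 97.9 CPM in SB and 258 to 295 CPM in controls. Of the other monocyte markers, Ccr2 and Cx3cr1 also had this order. Ly6c2 and Fn1 were instead highest in SB animal 3, and F13a1 was lowest in SB animal 3.

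Of 11 genes of fatty acid synthesis under SREBP, 9 had positive log2 differences, as did 9579 of 17328 genes tested. The median of the list was 0.75, and relative to the control mean it was -0.18 in SB animal 2 and positive in SB animals 1 and 3, while Srebf1 itself differed by 0.08. Fasn, the fatty acid synthase, stood at 232, 67.0 and 250.4 CPM in SB and at 97.5 to 107 CPM in controls, and Elovl6, an elongase, at 35.6, 6.79 and 23.5 CPM in SB and at 7.89 to 8.90 CPM in controls. SB animals 1 and 3 were above the controls and SB animal 2 below them for both genes, and neither was called (edgeR adjusted p = 0.231 and 0.135). These are values of single spleens, and no test of the order was made.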
